A study of Mus musculus with 7 samples.

Results

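Heterotrimeric G proteins and the regulators of G protein signalling (RGS proteins) were followed in mouse pancreatic alpha cells with and without the homeodomain transcription factor Nkx2.2. Members were the genes whose symbol is Rgs plus a number, or that of a named G protein alpha, beta or gamma subunit. Rgs5 was left out. The rule gave 51 of 55536 genes, with 20 RGS genes, 16 alpha subunits, 5 beta subunits and 10 gamma subunits. Although the rule reads only symbols, the family was taken up with the comparison of KO and control already known, Rgs8 being among its falls. The KO and control values below are therefore a description of the family, and their counts are no support for any statement about it.

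A heterotrimeric G protein carries the signal of a seven-transmembrane receptor into the cell. The receptor loads the alpha subunit with GTP, and the alpha subunit and the beta-gamma dimer then act on separate effectors. Alpha s stimulates adenylyl cyclase, alpha i/o inhibits it, and alpha q/11 activates phospholipase C beta. Alpha 12/13 forms a separate subfamily. Beta-gamma dimers released from alpha i/o open inwardly rectifying potassium channels of the GIRK type. RGS proteins speed the hydrolysis of GTP by alpha i/o and alpha q and so end the signal, while receptor kinases and arrestins silence the receptor itself. In alpha cells, receptors coupled to alpha s promote glucagon release, and the somatostatin receptor, coupled to alpha i/o, restrains it.

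RNA was sequenced from alpha cells that had been sorted by tdTomato fluorescence out of pancreatic islets of C57B1/6J mice, as the design text spells the strain. The 4 control libraries had the genotype Nkx2.2+/+;Gcg-iCre;Rosa26:tdTomato, and the 3 KO libraries Nkx2.2fl/fl;Gcg-iCre;Rosa26:tdTomato. Both groups thus carried the Cre driven from the glucagon gene and the reporter that set the sort gate, and the KO is limited to cells that have expressed this Cre. The age and sex of the mice, the number pooled for a library and the position of the loxP sites were not given in the sources used here, nor do they say whether libraries came from separate animals, so p-values measure the spread between these libraries.

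The libraries held 45483504 to 72456557 counts, and control 4 was the deepest, with 31024 genes detected against 23150 to 25873 in the others. One KO column bears a number that no KO label has, and it is called the unnumbered KO library. Its header number is that of control 4, and blocked values below come from a DESeq2 fit of libraries 1, 2 and 4 by header number, with that number as a block. Levels below are normalized counts, that is counts divided by DESeq2's size factors, in the order control 1 to 4 and then KO 1, KO 2 and unnumbered KO. The targeted gene itself, Nkx2-2, stood at 8596, 11199, 12297 and 9782 in controls and 7758, 7534 and 7694 in KO, a KO mean of 73.2% of control (DESeq2 adjusted p = 0.0218). Counts over the whole gene may include exons outside a deletion, so they check the labels only weakly. The source of the counts that remained in KO was not tested.

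Alpha cells expressed a small part of the family at a high level. Levels of different genes were compared per exon length, as TPM (counts per exon length, scaled to the same sum in every library) in the 4 controls. Among alpha subunits Gnas, which encodes alpha s, led with 63.3 ± 31.7 TPM (SD, n = 4), followed by Gnai2 with 25.5 ± 1.00 and Gnao1 with 23.3 ± 3.04, whose ranges met. By counts Gnao1 took 22.9% of the alpha sum and Gnai2 8.33% in controls, so their order rests on the division by length. The spread of Gnas came from control 4, where it stood at 17.8 TPM, and the mean of the other 3 controls was 78.4. The share of Gnas in the summed alpha level was 47.2%, 42.4%, 49.9% and 16.0% for the controls, with 39.4%, 41.2% and 37.6% for KO. Of the alpha q/11 genes, Gnaq reached 7.58 TPM and Gna11 6.31, and of the alpha 12/13 pair, Gna12 reached 3.24 and Gna13 2.54.

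**Figure D1:**
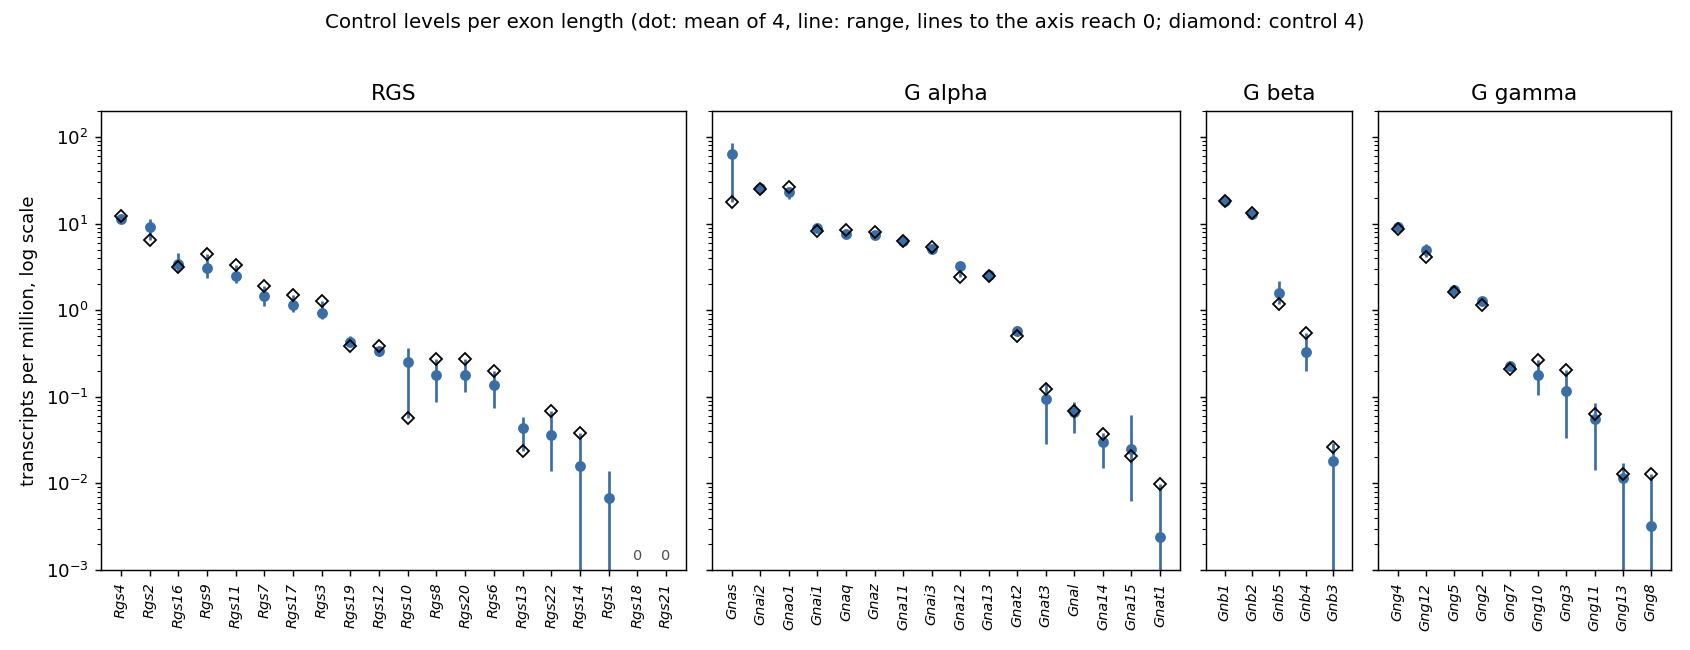
Level per exon length of each RGS and G protein gene in the 4 control libraries, in TPM on a log axis, by class. Dots are means, lines span the lowest to the highest control and reach the axis where a control is at 0, and open diamonds mark control 4, where Gnas stood at 17.8 against a mean of 63.3.

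One beta and one gamma gene supplied about 50% or more of their class per exon length. Gnb1 held 55.6% ± 0.560 (SD, n = 4) of the summed beta level in controls and 56.2% ± 2.70 (n = 3) in KO, and Gnb2 held 38.6% in controls. Gng4 held 52.0% ± 1.08 of the summed gamma level in controls and 50.4% ± 1.19 in KO, where KO 1 and KO 2 were at 49.5% and 49.9%, with Gng12 next at 27.8% in controls. By counts, without the division by length, Gng4 held 46.8% in controls. The RGS genes were more evenly spread. Rgs4 and Rgs2, members of the small R4 subfamily, held 32.4% ± 1.64 and 26.7% ± 5.98 of the summed RGS level in controls, Rgs16 held 9.86% and the neuronal R7 member Rgs9 held 8.93%. Rgs8 was a minor RGS gene, at 0.179 TPM. At the low end, Rgs18 and Rgs21 had no count in any library, which allows up to 3 counts, or 0.0414 to 0.0660 CPM (counts scaled to the library total) depending on the library. Where both reads of a fragment were counted the limit would be 6 counts, or 0.0828 to 0.132 CPM.

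Several members that lie near each other on a chromosome differed widely in level. Genes outside the family that may lie between them were not looked at. Gnai2 and Gnat1, the latter encoding the transducin of rods, are 39.1 kb apart on chromosome 9 and stood at 25.5 and 0.00243 TPM. Gna11 and Gna15 are 4.50 kb apart on chromosome 10, with 6.31 and 0.0252 TPM. Gnaq and Gna14 are 48.3 kb apart on chromosome 19, with 7.58 and 0.0297 TPM. On chromosome 1, Rgs2 at 9.19 TPM is followed, among members, by Rgs13, Rgs1, Rgs21 and Rgs18, none of them above 0.0433 TPM. In each of these 4 neighbourhoods 1 gene carried nearly all the transcripts of the members named. By contrast, Rgs9 and Gna13, 64.7 kb apart on chromosome 11, stood at 3.09 ± 0.941 and 2.54 ± 0.162 TPM (SD, n = 4). They did not differ beyond that spread.

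In KO against control, 41 of the 51 members were tested, 8 were set aside by DESeq2 for a low mean count and 2 had no count. Rgs22 and Rgs17 rose, and Rgs8, Gnao1 and Gnaz fell. These 5 calls at an adjusted p under 0.05 stand beside a background of 4.51% of the 17571 genes tested (2.24% higher and 2.27% lower in KO). The edgeR quasi-likelihood test called 0 members, against 1.05% of all genes, and gave 11 an unadjusted p under 0.05, against 10.5% of all genes. DESeq2 gave 11 of the 41 tested members an unadjusted p under 0.05 as well, against 12.2% of all genes tested. With size factors set to the library totals, which moved the median log2 fold change of all genes from 0.01 to 0.11, 5 members were called higher (3.77% of all genes) and 2 lower (1.64%). Without control 4, DESeq2 called 4 members higher (2.85% of all genes) and 5 lower (2.43%). Without KO 1 it called 0 higher (1.05% of all genes) and 2 lower (1.35%). The blocked fit called 3 higher (2.91% of all genes) and 4 lower (2.30%).

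Members lay on both sides of 0. The family's median log2 fold change was -0.01 over the 41 tested members, with 20 above 0 and 21 below, and all genes had a median of 0.01. The 16 tested RGS genes had a median of 0.25 with 11 above 0, and the 25 tested subunit genes a median of -0.09 with 9 above 0. The lowest median among groups of 3 or more tested genes was that of the alpha i/o genes, -0.36, with 6 of 7 below 0, and it stayed below 0 with library totals (-0.25). The 36 tested members that were not called ranged from -1.46 to 1.69, and 30 of them lay within 0.5 of 0. KO and control libraries did not overlap for 8 members, with KO above in 5 (Rgs22, Rgs17, Rgs6, Rgs10 and Gnat2, beside 6.07% of all genes tested) and below in 3 (Rgs8, Gnao1 and Gnaz, beside 5.94%).

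**Figure D2:**
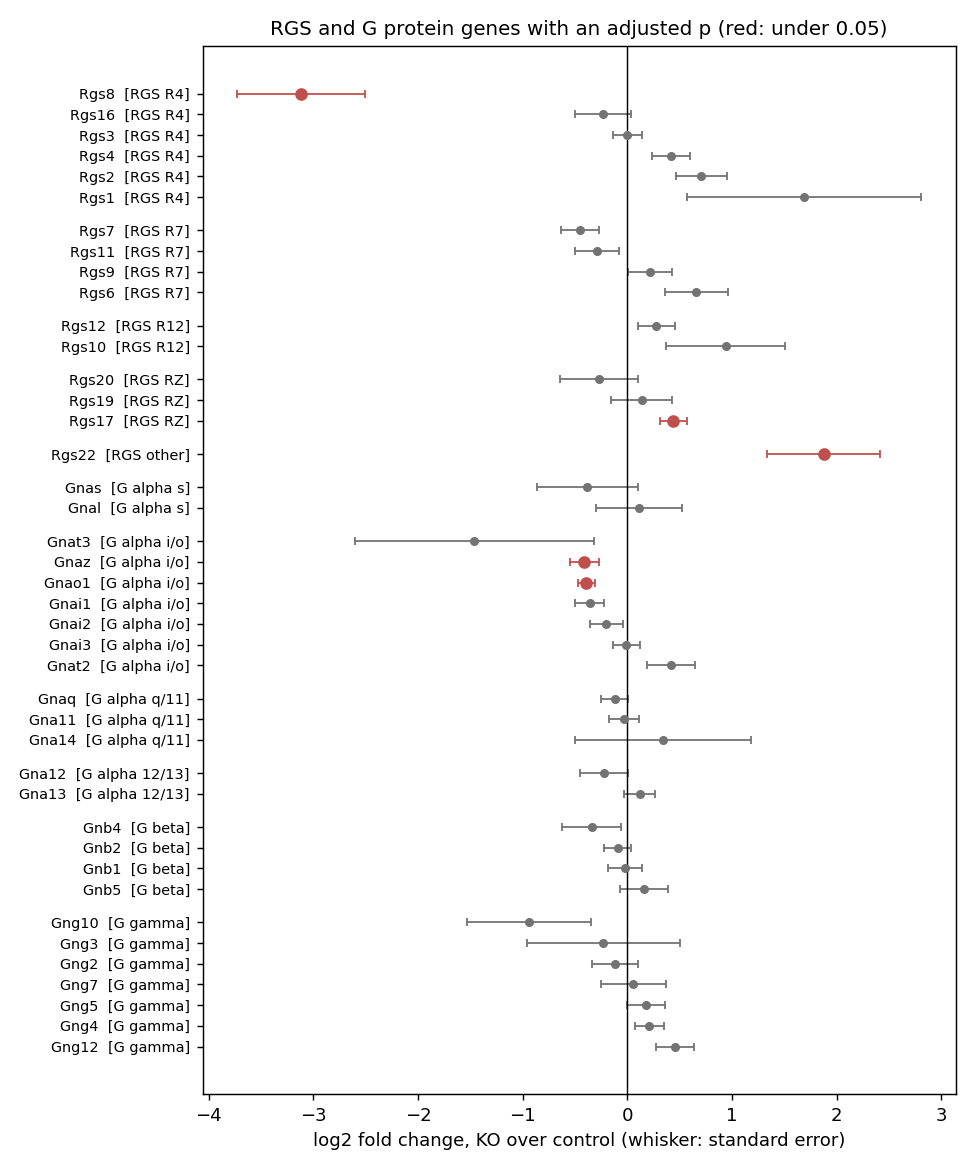
Log2 fold change, KO over control, of the 41 RGS and G protein genes that DESeq2 tested, grouped by subfamily. Dots are estimates, whiskers standard errors and red marks an adjusted p under 0.05, so that Rgs8 at -3.12 and Rgs22 at 1.88 lie farthest out among the called genes while Gnao1, Gnaz and Rgs17 moved by under 0.5.

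Of the 41 tested members, Rgs8 had the lowest log2 fold change. This R4 protein acts on alpha i/o and is known from neurons, where it speeds the opening and closing of GIRK channels. The gene lies on the plus strand at chr1:153653025-153700323 (GRCm38), 40.0 kb before Rgs16. Rgs8 stood at 177, 153, 471 and 385 normalized counts in controls, and at 37.2, 59.9 and 5.93 in KO. The highest KO library lay below the lowest control, and the libraries of both groups varied several-fold. The KO mean was 11.6% of control (34.3 ± 27.1, n = 3, against 297 ± 156, n = 4), a log2 fold change of -3.12 (SE 0.61, DESeq2 adjusted p = 3.03e-05). It was called in all 7 fits that left out 1 library, with log2 fold changes of -3.80 to -2.62. The size of the fall depended on the libraries: it was -2.46 without the 2 deepest libraries (DESeq2 adjusted p = 6.07e-05) and -1.77 over libraries 1 and 2 of each group (0.00707). By edgeR's quasi-likelihood test the adjusted p was 0.102, and without a filter on low counts it was 0.0357. Raw counts were 130 to 533 in controls and 8 to 58 in KO.

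Promoters of the called genes Rgs8, Gnao1 and Rgs17 are shown because the factor removed binds DNA and because Rgs8 has several starts. RefSeq (GRCm38.p6) gave 51 promoters for 38 of the 51 members, each of 300 bases from 250 before the start to 50 from it on. Capitals mark matches, on either strand, to the NKX2 homeodomain core TNAAGTG or the Krüppel-like factor (KLF) core GGGNGTG. The cAMP response element TGACGTCA was searched too. Each line reads 5′ to 3′ along the gene's strand, with the 3 Rgs8 starts first. Rgs22 and Gnaz, the other called genes, are not shown.
Rgs8, upstream start, chr1:153652787-153653086, plus strand: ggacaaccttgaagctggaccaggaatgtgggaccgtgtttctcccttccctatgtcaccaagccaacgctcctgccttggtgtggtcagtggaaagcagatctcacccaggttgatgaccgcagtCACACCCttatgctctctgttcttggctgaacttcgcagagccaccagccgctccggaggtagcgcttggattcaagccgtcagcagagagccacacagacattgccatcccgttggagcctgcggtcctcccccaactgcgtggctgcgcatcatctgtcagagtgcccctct
Rgs8, middle start, chr1:153665024-153665323, plus strand: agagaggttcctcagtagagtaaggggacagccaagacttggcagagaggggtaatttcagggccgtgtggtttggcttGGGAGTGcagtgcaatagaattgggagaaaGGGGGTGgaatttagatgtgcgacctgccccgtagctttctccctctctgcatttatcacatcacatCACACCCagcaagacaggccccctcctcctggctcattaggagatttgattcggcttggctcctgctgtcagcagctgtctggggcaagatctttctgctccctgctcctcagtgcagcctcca
Rgs8, downstream start, chr1:153665423-153665722, plus strand: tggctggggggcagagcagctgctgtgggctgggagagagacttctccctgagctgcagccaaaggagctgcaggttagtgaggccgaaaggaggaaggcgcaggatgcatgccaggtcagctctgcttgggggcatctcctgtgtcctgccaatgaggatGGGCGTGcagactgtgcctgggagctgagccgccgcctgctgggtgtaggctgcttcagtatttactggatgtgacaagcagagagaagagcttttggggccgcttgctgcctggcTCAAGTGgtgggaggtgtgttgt
Gnao1, chr8:93810588-93810887, plus strand: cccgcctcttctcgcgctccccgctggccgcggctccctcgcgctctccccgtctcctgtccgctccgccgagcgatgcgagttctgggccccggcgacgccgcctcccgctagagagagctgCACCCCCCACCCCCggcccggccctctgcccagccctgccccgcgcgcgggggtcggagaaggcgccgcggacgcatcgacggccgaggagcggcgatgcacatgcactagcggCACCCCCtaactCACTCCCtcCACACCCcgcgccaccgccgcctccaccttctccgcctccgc
Rgs17, chr10:5922351-5922650, minus strand: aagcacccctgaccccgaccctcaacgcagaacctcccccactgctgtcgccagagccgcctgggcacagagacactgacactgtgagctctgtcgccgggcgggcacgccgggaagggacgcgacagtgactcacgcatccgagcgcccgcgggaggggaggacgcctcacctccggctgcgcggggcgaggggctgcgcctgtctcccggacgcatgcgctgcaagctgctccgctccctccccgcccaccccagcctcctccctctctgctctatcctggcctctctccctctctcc

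Among these 5 windows, the NKX2 core was found at the downstream Rgs8 start, as TCAAGTG beginning at base 28, with the start as base 1. That window also held the KLF core GGGCGTG, 89 bases before the start. The upstream Rgs8 window held 1 KLF match, the middle one 3, the Gnao1 window 5, some of them adjoining, and the Rgs17 window held none of the 3 motifs. Over the family, 6 of 51 promoters held the NKX2 core (11.76%), close to the 11.54% of all 32851 promoters of the same length. The KLF core was in 50.98% of member promoters and 29.16% of all. GC content moved with it, at a median of 62.3% in member promoters and 52.7% in all, and its part in the match share was not tested. The cAMP response element was in 0 member promoters and 1.79% of all. A match is a string of letters and no evidence of binding.

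Rgs22 rose from a very low level. It encodes a large protein with several RGS domains, known mostly from testis, and lies at chr15:36009479-36140400 on the minus strand. Controls had 37.4, 23.6, 15.7 and 57.8 normalized counts, and KO libraries 124, 74.4 and 176. Every KO library was above every control. KO averaged 371% of control, a log2 fold change of 1.88 (SE 0.54, DESeq2 adjusted p = 0.0170), against 0.163 by edgeR's quasi-likelihood test. The call was lost without control 1, control 2, control 3, KO 1 or the unnumbered KO library, with DESeq2 adjusted p-values up to 0.288. Without control 4 the log2 fold change was 2.28 (DESeq2 adjusted p = 1.72e-04).

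Rgs17, an RZ subfamily member that acts on alpha z and alpha i/o, rose modestly. It lies at chr10:5825663-5922400 on the minus strand. Its levels were 1549, 1512, 1557 and 1807 in controls and 2224, 2356 and 1943 in KO, so that the groups lay apart with control 4 nearest to KO. KO libraries averaged 135% of control, a log2 fold change of 0.44 (SE 0.13, DESeq2 adjusted p = 0.0196), against 0.118 by edgeR's quasi-likelihood test. It remained called without control 4 (0.00429) or without the unnumbered KO library (0.0144) and in none of the other 5 such fits, whose DESeq2 adjusted p reached 0.245. It was not called in the blocked fit (0.42, DESeq2 adjusted p = 0.0864).

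**Figure D3:**
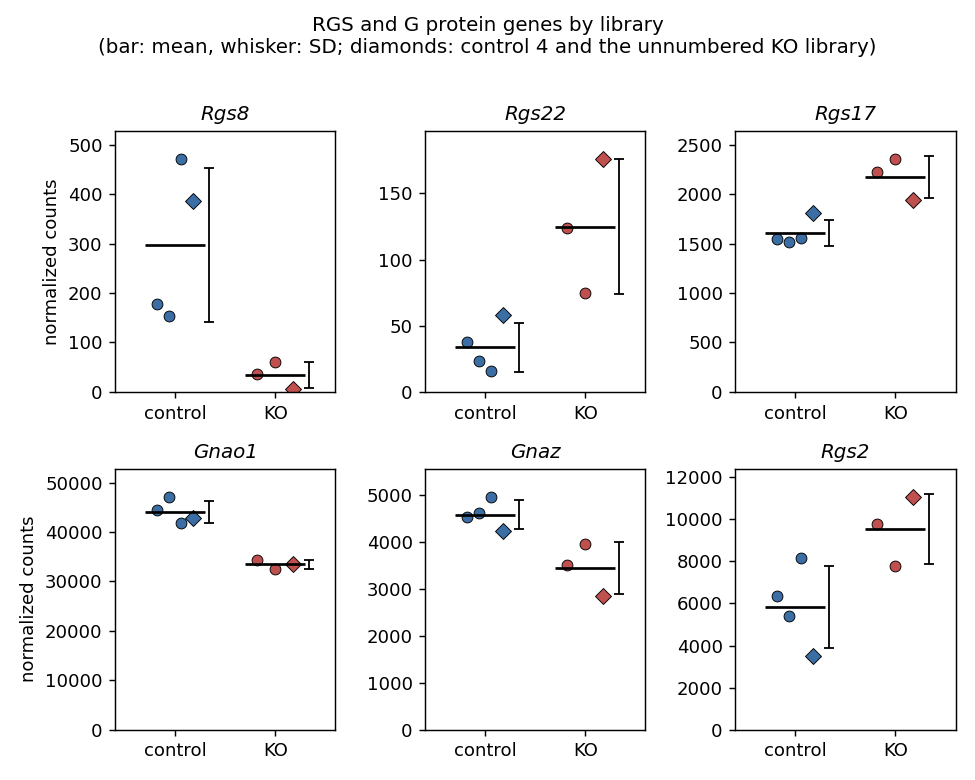
Normalized counts by library for the 5 called genes and Rgs2, with control and KO libraries as points, means as bars and the SD as whiskers. Diamonds mark control 4 and the unnumbered KO library, and KO and control points do not overlap in any panel but that of Rgs2, where KO 2 at 7785 lies below control 3 at 8155.

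The 2 most abundant RGS genes did not pass the test. Rgs2, which prefers alpha q, stood at 6347, 5411, 8155 and 3486 in controls and 9772, 7785 and 11076 in KO. Its KO mean was 163% of control, with a log2 fold change of 0.71 (SE 0.24, DESeq2 adjusted p = 0.0590). Without control 3 the log2 fold change was 0.91 (0.00299), without control 4 it was 0.53 (0.0258) and without KO 2 it was 0.83 (0.0423). With library totals as size factors it was 0.84 (DESeq2 adjusted p = 0.0106), so Rgs2 lay near the threshold and its side of it depended on the setting. Rgs2 held 26.7% ± 5.98 of the summed RGS level in controls and 34.7% ± 6.09 in KO, and KO 2 at 28.0% lay within the control range of 18.2% to 31.5%. Rgs4 had 5537, 5782, 6926 and 5552 in controls and 6780, 10571 and 6479 in KO. KO 2 was high and the other KO libraries were inside the control range (log2 fold change 0.42, SE 0.18, DESeq2 adjusted p = 0.233), and with library totals the adjusted p was 0.0271. In the blocked fit the log2 fold change was 0.46 (SE 0.14, DESeq2 adjusted p = 0.0229).

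The R7 subfamily, whose members are stable only when bound to the beta subunit of Gnb5, had 4 of 4 genes tested and none called. Rgs7 stood at 1516, 1385, 1340 and 1684 in controls and 973, 890 and 1377 in KO, where the unnumbered library lay inside the control range. Its log2 fold change was -0.45 (SE 0.18, DESeq2 adjusted p = 0.170), and -0.67 (0.00249) without the unnumbered KO library. The blocked value was -0.52 (DESeq2 adjusted p = 0.0155). Rgs6 was at 268, 203, 146 and 296 in controls and 307, 456 and 325 in KO. KO 1 exceeded control 4 narrowly (log2 fold change 0.66, SE 0.30, DESeq2 adjusted p = 0.266, and 0.0495 without control 4). Gnb5 itself made up 4.75% of the summed beta level in controls.

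Rgs10, a small R12 protein known from leukocytes and microglia, was at 102, 96.7, 88.9 and 14.5 in controls and 127, 178 and 127 in KO. Control 4 was far below the other controls, and the log2 fold change was 0.94 (SE 0.57, DESeq2 adjusted p = 0.593). Rgs14, of the same subfamily, had 4, 0, 12 and 33 raw counts in controls and none in the KO libraries. DESeq2 set it aside for a low mean count, with a log2 fold change of -6.05 (SE 2.21, DESeq2 unadjusted p = 0.00618) and no adjusted p.

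Among alpha i/o subunits, Gnao1 and Gnaz fell modestly. Gnao1 encodes alpha o, abundant in neurons and endocrine cells, and lies at chr8:93809966-93969388 on the plus strand. Its normalized counts were 44396, 47156, 41866 and 42781 in controls and 34391, 32572 and 33543 in KO. All KO libraries were below all controls, with little spread in either group (44050 ± 2320, n = 4, against 33502 ± 910, n = 3). The KO mean was 76.1% of control, a log2 fold change of -0.39 (SE 0.08, DESeq2 adjusted p = 1.57e-04). The call held in all 7 fits without 1 library (log2 fold changes of -0.42 to -0.36), but not with library totals as size factors (-0.29, DESeq2 adjusted p = 0.0671) nor by edgeR's quasi-likelihood test (0.128).

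Gnaz encodes alpha z, the pertussis toxin-resistant member of the group, and lies at chr10:74967177-75016907 on the plus strand. It stood at 4531, 4629, 4972 and 4230 in controls and 3513, 3966 and 2857 in KO. The groups lay apart, with the unnumbered KO library lowest. The KO mean was 75.1% of control, a log2 fold change of -0.41 (SE 0.14, DESeq2 adjusted p = 0.0486), and the edgeR quasi-likelihood test gave 0.187. This call sat at the threshold. TMM scaling gave a DESeq2 adjusted p of 0.0596, the model without Cook's distance filter 0.0551, and the call was lost without control 1, control 2, control 3, KO 1 or the unnumbered KO library (up to 0.245).

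Gnai1, another inhibitory alpha subunit, stood at 5133, 4995, 5287 and 3843 in controls and 3791, 3975 and 3512 in KO. Controls 1 to 3 were above all KO libraries and control 4 was among them. The log2 fold change was -0.36 (SE 0.14, DESeq2 adjusted p = 0.134), and -0.45 (0.00186) without control 4. Gnai2, level with Gnao1 per exon length, had means of 16626 in controls and 14450 in KO with overlapping libraries. Gnat2, the cone transducin, was low, at 273, 354, 329 and 225 in controls and 445, 366 and 373 in KO (log2 fold change 0.42, SE 0.23, DESeq2 adjusted p = 0.478). None of the 3 tested alpha q/11 genes and neither alpha 12/13 gene passed the test, with log2 fold changes of -0.12 to 0.34 and -0.22 to 0.12.

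Gnas depended on 1 library. It lies at chr2:174284320-174346744 on the plus strand, in an imprinted locus with several promoters, and its counts sum all transcripts of the locus in this annotation. Controls 1 to 4 had 157381, 132852, 185923 and 29312 normalized counts, and KO libraries 100474, 113176 and 77610. Controls 1 to 3 lay above every KO library, and control 4 far below. With all libraries the log2 fold change was -0.38 (SE 0.48, DESeq2 adjusted p = 0.961), and without control 4 it was -0.71 (1.66e-04), a KO mean of 61.2% of control. Without the 2 deepest libraries, control 4 and the unnumbered KO library, it was -0.57 (DESeq2 adjusted p = 0.00119). The blocked value, which includes control 4, had the other sign, at 0.16 (SE 0.52, DESeq2 adjusted p = 0.980).

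Exons of Gm20721 and Nespas on the opposite strand cover 22.0% of the Gnas exon length, and the sources used here do not say whether the counting used strand, so reads of these genes may not be separable. Gm20721 had 1595, 1477, 1883 and 60.7 normalized counts in controls and 1058, 1349 and 900 in KO, and was low in control 4 as Gnas was. Nespas, the antisense RNA of the locus, had 137, 156, 65.4 and 171 in controls and 222, 180 and 337 in KO. The part of strand assignment and depth in the control 4 value was not tested.

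**Figure D4:**
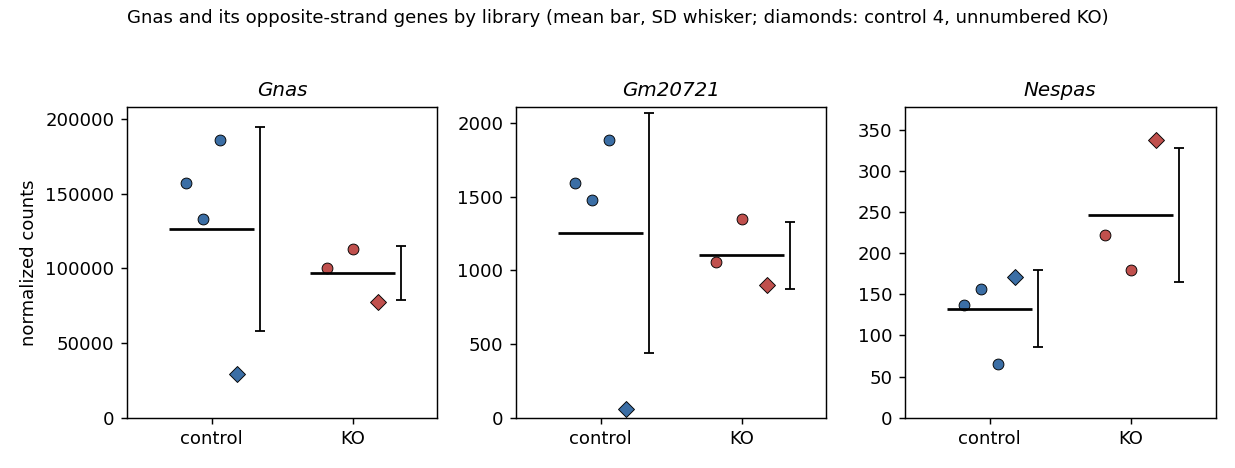
Normalized counts by library for Gnas and 2 genes on the opposite strand of its locus, with means as bars and the SD as whiskers. Diamonds mark control 4 and the unnumbered KO library, and control 4 is lowest for Gnas (29312) and Gm20721 (60.7) but highest of the controls for Nespas (171).

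No beta or gamma gene passed the test with all libraries. Gng12 came nearest, at 4454, 4622, 4122 and 2863 in controls and 6234, 5897 and 4476 in KO. The unnumbered KO library lay among the controls, and control 4 was the lowest library. The log2 fold change was 0.46 (SE 0.18, DESeq2 adjusted p = 0.165), and 0.59 (0.0404) without the unnumbered KO library. The blocked value was 0.49 (DESeq2 adjusted p = 1.00e-04). Gng12 held 27.8% ± 1.96 of the summed gamma level in controls and 32.3% ± 1.17 in KO. The other 10 tested beta and gamma genes had log2 fold changes of -0.94 to 0.21 with DESeq2 adjusted p-values of at least 0.615, and Gnb1, the main beta gene, had means of 13585 in controls and 13399 in KO.

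A list of 42 further genes of the pathway held receptor kinases and arrestins, chaperones and modulators of alpha subunits, RGS anchors and other RGS domain proteins, effectors, and transducin gamma genes. Of its members 35 were tested and 6 called by DESeq2, 3 higher and 3 lower in KO, beside the same background of 4.51%. The edgeR quasi-likelihood test called 2 of these, Kcnj3 and Plcb4, against 1.05% of all genes. The median log2 fold change of the list was 0.01. With library totals as size factors, 8 were called higher (3.77% of all genes) and 2 lower (1.64%).

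Kcnj3 and Plcb4, the genes called by both tools, are effectors. Kcnj3, the GIRK1 subunit of the potassium channel opened by beta-gamma, fell from 917, 790, 1144 and 703 in controls to 201, 287 and 305 in KO. Every KO library was under the lowest control by a wide gap. The KO mean was 29.8% of control, a log2 fold change of -1.75 (SE 0.23, DESeq2 adjusted p = 1.87e-11), with 0.0116 by edgeR's quasi-likelihood test, and the call held in all 7 fits without 1 library. Exons of Gm26794 on the opposite strand cover 31.1% of the Kcnj3 exon length. Kcnj5, the GIRK4 subunit, had 9.08, 4.72, 0 and 2.89 in controls and 35.2, 47.5 and 20.7 in KO, a rise at very low counts (log2 fold change 3.04, SE 0.97, DESeq2 adjusted p = 0.0396), and it was called in 2 of the 5 fits without 1 library that gave it an adjusted p. It was not called without control 2, control 3 or KO 1, with adjusted p-values up to 0.361, nor in the blocked fit (DESeq2 adjusted p = 0.0925). Kcnj6, the GIRK2 subunit, had overlapping libraries with means of 2526 in controls and 2419 in KO.

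Plcb4, a phospholipase C beta driven by alpha q, rose from 3363, 3831, 3215 and 3015 in controls to 4964, 5045 and 4868 in KO. The KO libraries were tightly grouped and all above the controls. On average KO stood at 148% of control, a log2 fold change of 0.56 (SE 0.11, DESeq2 adjusted p = 5.17e-05), with 0.0357 by edgeR's quasi-likelihood test, and the call held in all 7 fits without 1 library. Plcb1 and Plcb3 were tested and not called, and Plcb2 was set aside for a low mean count.

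**Figure D5:**
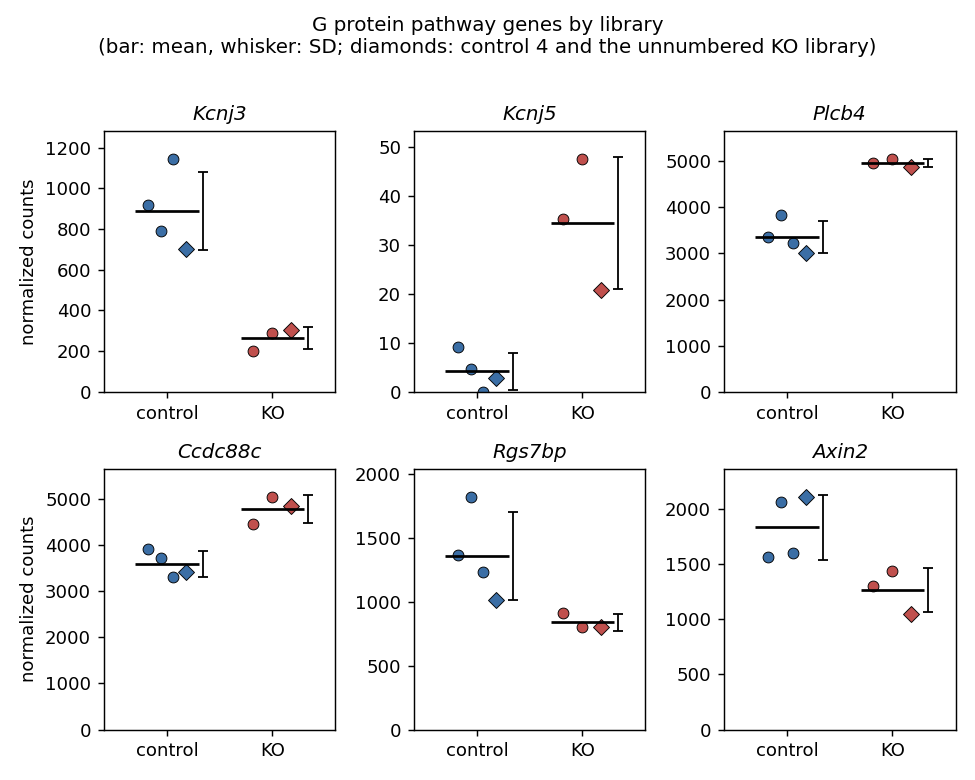
Normalized counts by library for the 6 called genes of the pathway list, with means as bars and the SD as whiskers. Diamonds mark control 4 and the unnumbered KO library, and KO and control libraries do not overlap in any panel, with the widest relative gaps for Kcnj3 (703 against 305) and Kcnj5 (9.08 against 20.7).

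An RGS anchor and an RGS domain protein fell. Rgs7bp, which holds R7 RGS proteins at the membrane, had 1363, 1823, 1237 and 1014 in controls and 915, 800 and 801 in KO. KO averaged 61.7% of control, a log2 fold change of -0.70 (SE 0.20, DESeq2 adjusted p = 0.0183). Axin2, a scaffold of beta-catenin destruction that carries an RGS domain, had 1560, 2063, 1598 and 2108 in controls and 1304, 1438 and 1046 in KO (log2 fold change -0.54, SE 0.17, DESeq2 adjusted p = 0.0451). In both genes the gap between the groups was narrow. Rgs7bp was called without control 3 or control 4 and Axin2 without control 1 or KO 2, and in none of the other 5 fits without 1 library, where DESeq2 adjusted p-values reached 0.125 and 0.274.

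Ccdc88c, also called Daple, which activates alpha i outside the receptor, rose from 3906, 3716, 3297 and 3405 in controls to 4439, 5041 and 4833 in KO (log2 fold change 0.41, SE 0.11, DESeq2 adjusted p = 0.00537). The groups did not overlap, and the call was lost without control 3, KO 2 or the unnumbered KO library (up to 0.106). Of the receptor kinases and arrestins, 0 of 7 tested were called by DESeq2 and none by edgeR's quasi-likelihood test. The nearest were Arrb2 (DESeq2 adjusted p = 0.0725) and Grk3 (0.0995), whose KO libraries lay below all controls and whose blocked values passed (0.0255 and 3.10e-04). The blocked fit called 10 of the pathway list in all, beside 5.21% of all genes.

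The sorted cells carried alpha cell markers at high levels in every library, and these levels differed between the groups. Summed over 10 alpha cell markers, normalized counts were 6480317 to 8470114 in controls and 2973147 to 4291725 in KO, and 7 of 10 were called lower, Gcg among them at 48.6% of control. The summed gamma cell markers were 309330 to 580204 in controls and 889660 to 1136309 in KO, with 2 of 4 called higher. Delta cell markers, 2 of 5 tested called higher, ranged from 197156 to 400134 and from 356973 to 633738. Beta cell markers, 2 of 10 called higher, ranged from 338408 to 695053 and from 536260 to 981536. These bulk libraries cannot tell fewer cells of a type from less RNA per cell, and the part of the marker shift in the falls of Rgs8, Gnao1, Gnaz and Kcnj3 and the rises of Rgs22, Rgs17 and Plcb4 was not tested.

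Markers of cells from outside the islet were lower than those of islet cells, and their sums overlapped between the groups. Acinar markers summed to 310 to 13499 in controls and 1884 to 7153 in KO, with Amy2a5 at 0 in all libraries and 0 of 7 tested called by DESeq2. Duct markers summed to 10677 to 14700 and 13875 to 14425, with 1 of 6 called higher. Leukocyte markers summed to 976 to 1545 and 888 to 1036, with 1 of 3 tested called lower. The called gene, C1qa, was the largest part of the sum, at a KO mean of 56.7% of control. The other leukocyte markers had higher means in KO. Cd68 and Cd74, tested and not called, stood at 143% and 292% of control. For Cd74 all KO libraries lay above all controls (DESeq2 adjusted p = 0.139). Ptprc, C1qb and Lyz2, set aside for a low mean count, stood at 243%, 356% and 143%. Endothelial (410 to 672 and 398 to 1144), mesenchymal (1402 to 3922 and 2313 to 4187) and Schwann cell markers (655 to 1128 and 810 to 839) had no gene called by DESeq2.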

How the data were processed

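Alpha cells sorted by fluorescence gave 4 control and 3 KO libraries, made with a stranded, ribosomal RNA-depleting kit for low input, per the labels' protocols. The authors deposited raw read counts per gene. The submitters' processing notes name STAR, featureCounts, DESeq2 and the build mm10, and the strand setting and versions were not given in the sources used here. Of counts from 1 to 10, 84.4% to 88.9% were even, so that a pair of counts can stand for 1 fragment, and floors of 3 counts cover counting error only.

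The design text names DESeq2 without batch correction. KO and control were compared over all genes with DESeq2 1.42.0 (Wald test, Benjamini-Hochberg adjustment, independent filtering for a level of 0.05), which set genes of low mean count aside, and with edgeR 4.0.16 (quasi-likelihood test) as an alternative. Both were run on simulated counts with changes larger than most of those reported here, so that run does not bear on calls of small changes. A call is an adjusted p under 0.05. Levels per exon length used GENCODE M21 (GRCm38), to which all 55536 identifiers matched.

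Members and lists were chosen with earlier results of these data known. Named were members called by either tool or in a fit without 1 library, members whose groups did not overlap, Rgs8, Gnas, the most abundant of each class, and called pathway genes. Other genes named below these, such as Rgs14, Gnat1 or Kcnj6, were added after their values were seen. Alternatives covered scaling, low-count and Cook's filters, each library left out, the deepest libraries left out and pairing by replicate number. Independent filtering at a level of 0.1 and a block by header number were added after seeing the data. Libraries with the same header number (1, 2 and 4) deviated together from their group means, at correlations of 0.172, 0.236 and 0.446 over 17571 genes. The KO labels carry a 3 in place of the 4, for which the correlation would be -0.381, and control 3 and KO 2 reached 0.353, so the pairing rests on the header alone.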

Additional observations from a re-analysis of the deposited data

Results flagged for a closer look

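A Dixon test over the 4 controls flagged an outlying library in 2 of 20 genes, where 1 would be expected by chance. Both flags fell on control 4. Gnas, at 29312 in control 4 and 132852 to 185923 in the other controls, was not flagged. The number of flags therefore does not settle whether control 4 stood apart. Rgs10 had 14.5 normalized counts in control 4 and 88.9 to 102 in the other controls. Rgs17 had 1807 in control 4 and 1512 to 1557 in the others.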

How the results depend on the processing

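Against 5 member calls, edgeR's quasi-likelihood test gave 0 and, without a low-count filter, 1 (0 higher, 1 lower). Leaving out 1 library gave 2 to 9 calls, 0 to 4 of them higher and 2 to 5 lower, and without the 2 deepest libraries there were 9 with 6 lower. With library totals 5 were higher. Over all genes these settings called 0.935% to 5.53%. Against 6 pathway calls, edgeR gave 2 with the filter and 2 without, and leaving out 1 library gave 3 to 5. Library totals gave 10 (5.41% of all genes) and the replicate block by header number 10 (5.21%). Over libraries 1 and 2 of each group, the replicate block gave 9 member calls (4 higher, 5 lower) and the unblocked fit 8 (5 lower). Of all genes, that replicate block called 2.34% higher and 1.52% lower, and the unblocked fit 2.18% and 1.67%. Without the length division, Gnb1 held 59.9% of beta, Gng4 46.8% of gamma and Rgs4 24.3% of RGS counts. Of the 20 genes run under up to 18 alternatives, 1 turned sign: Gnas, at 0.16 with the replicate block by header number. Counts were low for Rgs22, Kcnj5 and Rgs14.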
